A study of Mus musculus with 28 samples.

Results

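The proteasome genes of mouse CD4+ T cells were followed here through 24 h of culture with either of 2 cytokines. Genes were taken by name: symbols that begin with Psma to Psmg and a number, with at least 1 RPKM (a read count divided by the transcript's length and the library's total) in the highest library. Of 23222 symbols in the files 49 matched the name and 47 reached that level. These 47 hold 31 constitutive subunits (7 of the alpha ring, 7 of the beta ring, 6 ATPases and 11 other subunits of the regulatory particle), the 3 immunoproteasome subunits Psmb8, Psmb9 and Psmb10, and 13 others. The 13 others are assembly chaperones, activators, the inhibitor Psmf1, and Psmc3ip, which matches the name pattern but encodes a meiotic recombination factor and no proteasome subunit. The lowest members were Psmd9 and Psmc3ip, with 7.91 and 11.7 RPKM in their highest library. The 2 symbols left out, the testis subunit Psma8 and the thymic cortex subunit Psmb11, reached 0.14 and 0.47 RPKM.

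The series holds 28 samples, of which the 9 RNA-seq libraries are used here and 19 chromatin libraries are not. All 9 were made from CD4+ T cells of the spleen (C57BL/6, wild type), stimulated for 3 days on anti-CD3 (2 µg/ml) with anti-CD28 (1 µg/ml) and then rested overnight. One library had no cytokine (the control), and 1 library was made after each of 0.5, 2, 4 and 24 h with IL-2 and with IL-21. The labels give no separate mice or cultures and no cytokine dose for the RNA cultures, and the control has no stated time. Time in culture and cytokine therefore cannot be told apart in a comparison with the control, whereas IL-2 and IL-21 were compared at equal times.

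The proteasome degrades proteins that carry ubiquitin chains. Its core particle is a barrel of alpha rings around beta rings, and the beta subunits Psmb5, Psmb6 and Psmb7 hold the chymotrypsin-like, caspase-like and trypsin-like sites. A regulatory particle of ATPases (Psmc genes) and non-ATPases (Psmd genes) binds ubiquitin, unfolds the substrate and feeds it into the core. In lymphocytes, and elsewhere after interferon, Psmb8, Psmb9 and Psmb10 take the places of Psmb5, Psmb6 and Psmb7 to form the immunoproteasome, which is known for making peptides for MHC class I. STAT5 is the main transcription factor downstream of IL-2, and STAT3 that of IL-21.

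The upstream sequences of the 3 immunoproteasome genes are printed beside those of Psmb5, Psmd1 and Psme3, which were at least 2-fold above the control at 24 h with IL-2 when the 3 immunoproteasome genes were not. Each is the 250 bases before the annotated start, from RefSeq on GRCm38.p6, 5′ to 3′ on the gene's own strand, and capitals mark matches to the motifs described after them. Psmb8 lies at chr17:34197945-34198194 (plus strand), Psmb9 at chr17:34187331-34187580 (minus) and Psmb10 at chr8:105938393-105938642 (minus). Psmb5 lies at chr14:54617996-54618245 (minus), Psmd1 at chr1:86064369-86064618 (plus) and Psme3 at chr11:101315963-101316212 (plus).
Psmb8: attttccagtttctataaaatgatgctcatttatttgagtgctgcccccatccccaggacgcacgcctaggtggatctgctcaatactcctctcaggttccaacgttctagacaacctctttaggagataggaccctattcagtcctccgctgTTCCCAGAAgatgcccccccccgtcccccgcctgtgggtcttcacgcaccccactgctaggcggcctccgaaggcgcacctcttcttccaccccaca
Psmb9: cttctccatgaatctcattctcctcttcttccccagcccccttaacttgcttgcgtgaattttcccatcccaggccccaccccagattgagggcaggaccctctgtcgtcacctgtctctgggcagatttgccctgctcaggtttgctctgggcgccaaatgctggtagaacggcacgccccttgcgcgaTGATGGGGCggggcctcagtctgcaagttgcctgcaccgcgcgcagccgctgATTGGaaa
Psmb10: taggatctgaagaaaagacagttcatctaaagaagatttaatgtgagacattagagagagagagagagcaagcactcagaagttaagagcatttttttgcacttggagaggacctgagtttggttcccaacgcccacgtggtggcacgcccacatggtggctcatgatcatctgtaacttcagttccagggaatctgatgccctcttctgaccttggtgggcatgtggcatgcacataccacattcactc
Psmb5: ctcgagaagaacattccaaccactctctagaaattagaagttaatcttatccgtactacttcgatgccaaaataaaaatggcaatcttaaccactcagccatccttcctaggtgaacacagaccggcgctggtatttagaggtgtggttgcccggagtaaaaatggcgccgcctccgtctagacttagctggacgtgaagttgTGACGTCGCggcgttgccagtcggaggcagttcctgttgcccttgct
Psmd1: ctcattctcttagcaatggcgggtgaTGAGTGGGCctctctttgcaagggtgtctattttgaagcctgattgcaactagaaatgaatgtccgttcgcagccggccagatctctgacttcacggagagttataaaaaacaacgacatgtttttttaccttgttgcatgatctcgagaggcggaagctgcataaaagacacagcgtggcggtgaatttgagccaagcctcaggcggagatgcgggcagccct
Psme3: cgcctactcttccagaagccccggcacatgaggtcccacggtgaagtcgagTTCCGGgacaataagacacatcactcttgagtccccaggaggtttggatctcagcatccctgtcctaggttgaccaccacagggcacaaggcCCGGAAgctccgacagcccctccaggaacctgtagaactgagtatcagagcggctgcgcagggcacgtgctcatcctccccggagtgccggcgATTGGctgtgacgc

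The motifs were searched on both strands in the 250 bases before and 50 bases after each start. A promoter was given for 40 of the 47 members (43 entries), and not for Psmb1, Psmb2, Psmb7, Psmc3, Psmd3, Psmd7 and Psmg2. TTCNNNGAA, the core of STAT sites, was in 3 of the 43 member promoters (6.98%) and in 8.30% of all 32851 promoters. The 3 were those of Psmb8, with TTCCCAGAA at base -97, Psmd2 and Psmg1. CCGGAA, the core of ETS family sites, was in 22 of 43 (51.2%) against 14.9% of all, and in 0 of the 3 immunoproteasome promoters. TGANNNNGC, the core of antioxidant response elements, was in 25 of 43 (58.1%) against 41.3%, among them Psmb9 with TGATGGGGC at base -60, Psmb5 with TGACGTCGC at base -47 and Psmd1 with TGAGTGGGC at base -224. CCAAT, bound by NF-Y, was in 14 of 43 (32.6%) against 37.4%, and it is the reverse-strand match ATTGG in Psmb9 (base -8) and Psme3 (base -14). GAAA followed after any 2 bases by GAAA, an interferon response core, was in 5 of 43 (11.6%) against 3.44% of all promoters, namely those of Psmb3, Psmd4, Psmd9, Psme1 and Psmg4. The upstream sequence of Psmb10 held no match to any of the 5. Matches in capitals do not overlap one another. These are matches of letters, and no binding data were used.

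The authors' library totals ran from 29.5 to 44.3 M reads, and 107424 to 176810 reads of a library fell in the members. The defining marker Cd4 stood at 207 RPKM in the control and the 5 measured CD4 T cell markers summed to 1265 RPKM there, 725 RPKM in the IL-2 24 h library and 1219 RPKM in the IL-21 24 h library. Of 10 listed B cell markers 9 were measured, and they summed to 61.3, 31.3 and 11.8 RPKM in the same 3 libraries. The 2 CD8 T cell markers, Cd8a and Cd8b1, summed to 9.73, 6.27 and 11.3 RPKM there. The sums were 6.90, 2.79 and 8.27 RPKM for macrophage and 193, 115 and 520 RPKM for NK markers, the last mostly Gzma, which activated T cells also express. Of 5 dendritic markers 2 reached 1 RPKM in some library, and the 5 summed to 2.27, 0.620 and 2.02 RPKM, with Siglech at or near 0 throughout. Of 5 erythroid markers 2 also reached it, and the 5 summed to 3.23, 0.610 and 0.436 RPKM, with Alas2 at or near 0 throughout. In such bulk samples fewer cells of a type and less RNA per cell cannot be told apart.

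The summed level of the constitutive proteasome genes was highest in the library with 24 h of IL-2. The 31 constitutive subunits summed to 1820 RPKM in the control, to 1834, 1921, 2214 and 3027 RPKM after 0.5, 2, 4 and 24 h of IL-2, and to 1627, 1845, 2156 and 1846 RPKM after the same times of IL-21. The 2 cytokines thus lay close to each other up to 4 h and apart at 24 h. Of the 31 genes 30 had their highest value in the IL-2 24 h library, the exception being Psmb1. Over all 47 members the number was 40, and 32 of the 47 had their lowest value in the IL-21 0.5 h library. The share of all genes with their highest or lowest value in these libraries was not computed, so these counts do not set the members apart from other genes. Such counts also depend on how libraries are scaled. Against the control, the median log2 difference of all genes at 0.5 h of IL-21 was -0.05, and TMM scaling moved it by 0.05. The constitutive median there was -0.14, and -0.08 with TMM scaling.

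**Figure D1:**
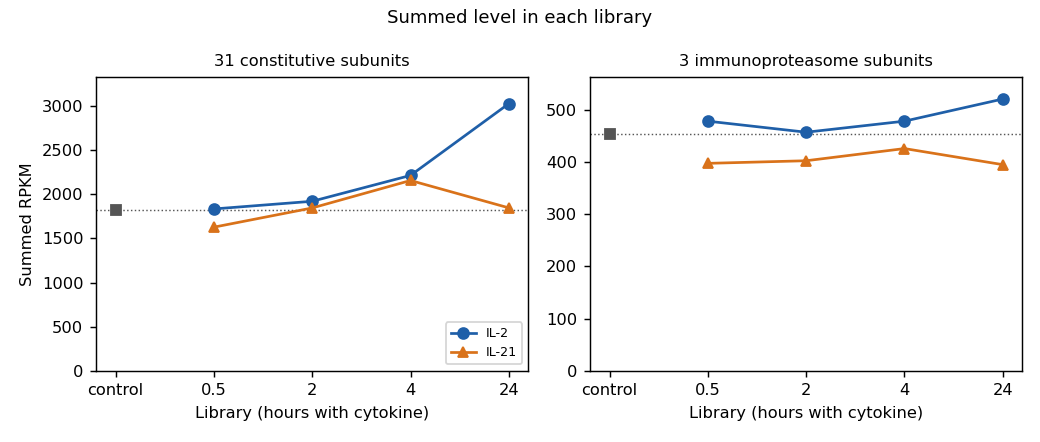
Summed RPKM of the 31 constitutive subunits (left) and the 3 immunoproteasome subunits (right) in each of 9 libraries; the square and dotted line are the control, circles are IL-2 and triangles IL-21 at 0.5, 2, 4 and 24 h, 1 library per point with no error bar. The constitutive sum reaches 3027 RPKM at 24 h with IL-2 against 1846 RPKM at 24 h with IL-21, and the immunoproteasome sum 520 against 395 RPKM.

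Differences between 2 libraries were taken on the log2(RPKM + 1) scale, which understates changes of low genes, and carry no p-value because each condition has 1 library. Ratios of RPKM are given with exact 95% intervals from the 2 read counts, which cover counting error only. At 24 h with IL-2, 10 of 47 members were at least 2-fold above the control, against 9.58% of all 11047 genes measured, and 0 were 2-fold lower (6.64%). Of the 10, 7 were constitutive subunits (Psma7, Psmb5, Psmb7, Psmd1, Psmd3, Psmd7 and Psmd12) and 3 were others (Psme3, Psmg2 and Psmc3ip). At 1.5-fold the number was 31 of 47 members, 25 of 31 constitutive and 0 of 3 immunoproteasome subunits, against 22.6% of all genes. The median log2 difference was 0.83 for the constitutive subunits, 0.02 for the immunoproteasome subunits and 0.05 for all genes. The counting interval lay above equality for 29 of 31 constitutive subunits, below it for Psmb1 and across it for Psmd4. No share over all genes was computed for such interval counts. At these read counts small differences also leave equality outside. At 0.5 h of IL-21 the interval lay below equality for 30 of 47 members, while 0 were 1.5-fold from the control.

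These counts depend on how libraries are scaled. With upper quartile scaling, which moved the median of all genes by -0.17, 4 of 47 members (Psmc3ip, Psmd1, Psmd7 and Psme3) were at least 2-fold above the control at 24 h with IL-2, against 6.17% of all genes. The constitutive median was then 0.62, and 29 of the 31 were above the control. It lay above the median of all genes by 0.74, against 0.78 without this scaling. With TMM scaling the number stayed at 10 (9.57% of all genes) and the constitutive median was 0.82. The IL-2 24 h library had the lowest sum of CD4 T cell markers among the 3 given above, and the part of this in the proteasome values was not tested.

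Earlier, differences were fewer. At 0.5 h 0 members were 2-fold from the control with IL-2 (0.407% of all genes were higher) and 0 with IL-21 (0.326%). At 2 h there were again 0 with either cytokine (3.15% and 1.72%), and at 1.5-fold the same 3 genes, Psmd7, Psme3 and Psmg2, were higher with IL-2 (9.22%) and with IL-21 (6.92%); both comparisons share the control library. At 4 h of IL-2 2 members, Psmd7 and Psme3, were 2-fold higher (5.38%), and 10 were 1.5-fold higher (14.8%). At 4 h of IL-21 0 were 2-fold higher (1.21%), and 4 (Psmc5, Psmd1, Psmd7 and Psme3) were 1.5-fold higher (5.59%). The constitutive medians at 4 h were 0.29 with IL-2 and 0.31 with IL-21. At 24 h of IL-21 the constitutive median was 0.06, with 0 of 47 members 2-fold higher (1.62%) and 0 even at 1.5-fold (6.14%). At that time 0 were 1.5-fold lower (7.57%). The counting interval for 24 h of IL-21 lay above equality for 12 constitutive subunits, below it for 9 and across it for 10, and it lay below equality for all 3 immunoproteasome subunits. Here too no share over all genes was computed for the intervals.

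**Figure D2:**
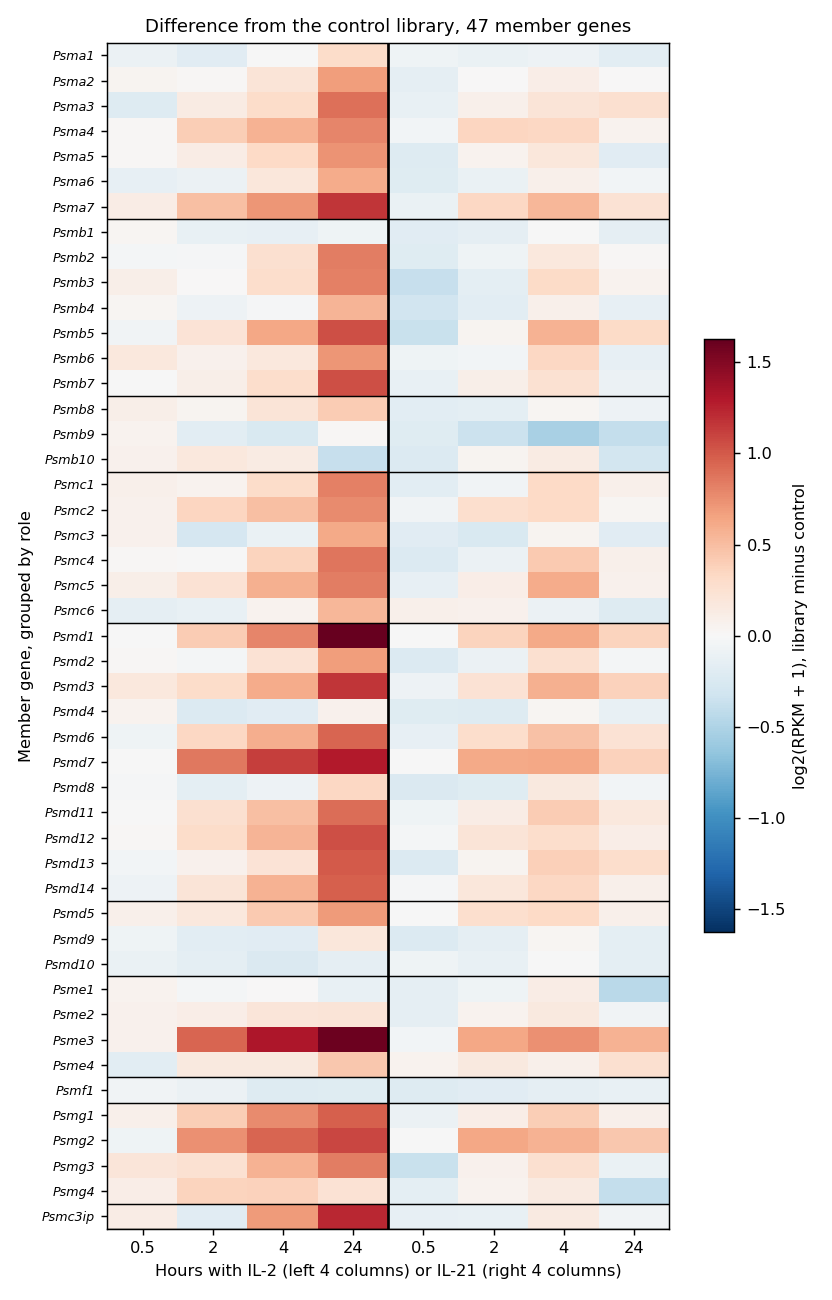
Colour shows the log2(RPKM + 1) difference from the control library for each of 47 member genes (rows, grouped by role with lines between roles) in the 4 IL-2 libraries (left) and 4 IL-21 libraries (right); red is above and blue below the control. The darkest red lies in the IL-2 24 h column, at Psmd1 (1.63) and Psme3 (1.60), while the 3 immunoproteasome rows stay between -0.37 and 0.42 there.

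Within the alpha ring, the gate of the core particle, Psma7 differed most between the cytokines at 24 h and Psma1 least. Psma7 was at 75.03 RPKM in the control, 81.9, 106, 124 and 170 RPKM along the IL-2 times, and 69.5, 94.97, 110 and 88.3 RPKM along the IL-21 times. It stood at 2.26 times the control at 24 h with IL-2 (2.15 to 2.38) and at 1.18 times at 24 h with IL-21 (1.11 to 1.24). Psma1 was at 86.1 RPKM in the control, between 75.7 and 85.9 RPKM in the 6 cytokine libraries up to 4 h, and at 107 and 76.4 RPKM at 24 h with IL-2 and with IL-21. All 7 alpha genes were above the control at 24 h with IL-2, with a median of 0.73, and 4 of 7 at 24 h with IL-21, with a median of 0.00.

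In the constitutive beta ring Psmb1, a subunit without a catalytic site and the most abundant constitutive gene of the control, stayed close to the control. It was at 159 RPKM in the control, 151 RPKM at 24 h with IL-2 and 144 RPKM at 24 h with IL-21. The other 6 beta genes were all above the control at 24 h with IL-2, by 0.56 (Psmb4) to 1.05 (Psmb7).

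The 3 constitutive catalytic genes followed different courses up to 4 h and shared the high IL-2 value at 24 h. Psmb5 was at 49.6 RPKM in the control, 47.7, 57.8, 77.3 and 104 RPKM with IL-2 at the 4 times, and 38.4, 51.2, 74.2 and 61.9 RPKM with IL-21. Both series were higher at each later time up to 4 h, and at 24 h Psmb5 stood at 2.09 times the control with IL-2 (1.96 to 2.23) and at 1.25 times with IL-21 (1.17 to 1.34). Psmb6 was at 41.9 RPKM in the control, 47.3, 44.0, 47.1 and 69.3 RPKM with IL-2, and 39.8, 40.7, 53.0 and 38.0 RPKM with IL-21. At 4 h its IL-21 value was the higher of the 2, at 24 h its IL-2 value. Psmb7 was at 52.6 RPKM in the control, 52.3, 56.5, 64.7 and 110 RPKM with IL-2, and 48.1, 56.2, 62.9 and 49.3 RPKM with IL-21. The 2 series of Psmb7 lay close to each other up to 4 h, and at 24 h IL-2 was above IL-21 by 1.15 on the log2 scale (ratio interval 2.11 to 2.37). Psmb5 overlaps the microRNA gene Mir686 and Psmb7 the gene model Gm13586, and whether counting used strand is not given, so reads of overlapping genes cannot be told apart there.

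The 6 ATPases of the regulatory particle, which unfold substrates, lay in a narrow range between the cytokines. At 24 h IL-2 was above IL-21 in all 6, by 0.74 (Psmc2) to 0.80 (Psmc3). Psmc2 was at 34.9 RPKM in the control, 36.8, 44.8, 49.6 and 60.1 RPKM with IL-2, and 33.5, 42.5, 44.2 and 35.6 RPKM with IL-21. Psmc3 was at 59.3 RPKM in the control, 62.6, 49.1, 55.1 and 91.4 RPKM with IL-2, and 52.1, 49.6, 61.1 and 52.0 RPKM with IL-21. Against the control the ATPase median after 24 h was 0.79 with IL-2 and 0.05 with IL-21.

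Non-ATPase subunits had the highest median of the constitutive roles at 24 h with IL-2 (0.98) and held both ends of their range in 2 genes of different kinds. Psmd1, the large scaffold subunit of the base, was the lowest constitutive gene of the control at 18.8 RPKM. It was at 18.7, 25.4, 33.4 and 60.1 RPKM along the IL-2 times and at 18.6, 24.4, 29.3 and 24.5 RPKM along the IL-21 times. At 24 h with IL-2 it stood at 3.20 times the control (3.04 to 3.36) and at 2.45 times the IL-21 library (2.35 to 2.56). Psmd1 overlaps Htr2b and Gm22786 in the annotation. Psmd4, a ubiquitin receptor, was at 71.8 RPKM in the control, 74.95, 61.6, 63.2 and 75.2 RPKM with IL-2, and 62.8, 61.9, 73.2 and 65.7 RPKM with IL-21. It was thus close to the control at 24 h in both series.

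Another 3 non-ATPases were at or over 2-fold at 24 h with IL-2, and they differed in when they left the control level. Psmd7, the partner of the deubiquitinating subunit Psmd14, was at 28.1 RPKM in the control, 28.1, 51.6, 62.8 and 70.4 RPKM with IL-2, and 28.04, 43.8, 44.2 and 36.7 RPKM with IL-21. It was already 1.5-fold above the control at 2 h in both series. Psmd3, a subunit of the lid, was at 34.5 RPKM in the control, 39.0, 42.9, 52.8 and 78.8 RPKM with IL-2, and 32.5, 40.8, 51.8 and 44.9 RPKM with IL-21. Psmd12, also of the lid, was at 28.8 RPKM in the control, 29.2, 35.6, 42.9 and 60.8 RPKM with IL-2, and 28.3, 33.5, 35.3 and 31.2 RPKM with IL-21. The largest step with IL-2 came between 4 and 24 h for Psmd3 and Psmd12, and between 0.5 and 2 h for Psmd7. With IL-21 all 3 were lower at 24 h than at 4 h.

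From 2 h on the constitutive genes lay closer to one another than in the control with both cytokines, and closest at 24 h with IL-2. The SD of log2 RPKM over the 31 genes was 0.69 in the control. It was 0.69, 0.58, 0.54 and 0.50 along the IL-2 times, and 0.65, 0.59, 0.57 and 0.60 along the IL-21 times. The lowest of the 31 stood at 18.8 RPKM in the control (Psmd1), at 49.7 RPKM at 24 h with IL-2 (Psmd11) and at 24.5 RPKM at 24 h with IL-21 (Psmd1). The highest stood at 159 RPKM (Psmb1), 178 RPKM (Psma2) and 144 RPKM (Psmb1) in the same 3 libraries.

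**Figure D3:**
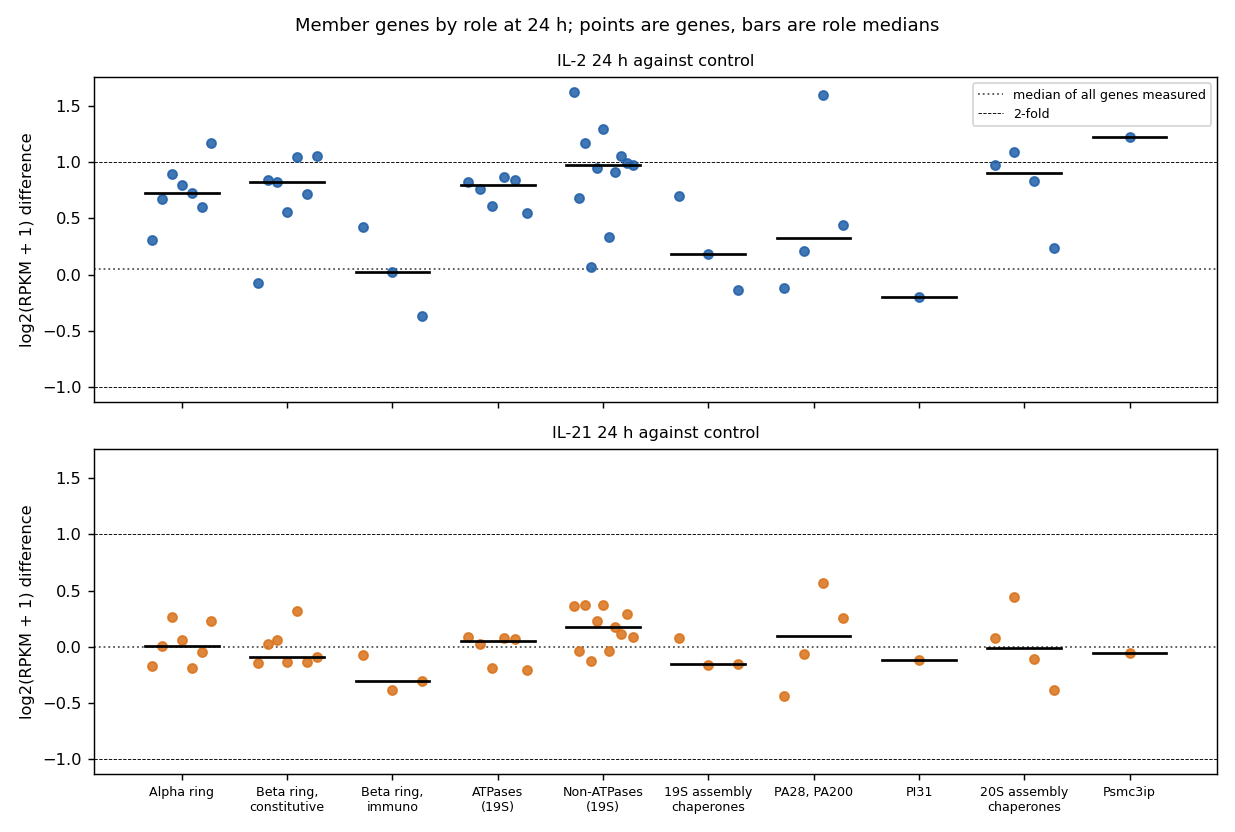
Each point is 1 gene; the vertical axis is its log2(RPKM + 1) difference from the control at 24 h with IL-2 (top) or IL-21 (bottom), by role, with a bar at the role's median. Dashed lines mark 2-fold and the dotted line the median of all genes measured. With IL-2 the alpha, constitutive beta, ATPase and non-ATPase medians lie between 0.73 and 0.98, and the immunoproteasome median at 0.02.

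Assembly factors of both particles were measured. The 4 chaperones of core particle assembly, Psmg1 to Psmg4, were all above the control at 24 h with IL-2 (median 0.90), and IL-2 was above IL-21 by 0.62 (Psmg4) to 0.94 (Psmg3). Psmg3 was at 10.1 RPKM in the control, 11.7, 12.2, 15.5 and 18.7 RPKM with IL-2, and 7.60, 10.6, 12.3 and 9.28 RPKM with IL-21. Psmg4 was at 20.2 RPKM in the control, 21.9, 26.3, 26.4 and 24.0 RPKM with IL-2, and 18.04, 21, 22.4 and 15.2 RPKM with IL-21. IL-2 was above IL-21 at all 4 times for both genes. Psmg2 was at 13.8 RPKM in the control, 13.1, 23.8, 27.5 and 30.6 RPKM with IL-2, and 13.8, 21.9, 20.9 and 19.1 RPKM with IL-21, so it was above the control from 2 h on in both series, and highest at 24 h with IL-2.

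The chaperones of the regulatory particle, Psmd5, Psmd9 and Psmd10, had a median of 0.18 at 24 h with IL-2. Psmd5 went from 14.5 RPKM in the control to 24.1 and 15.3 RPKM at 24 h with IL-2 and with IL-21. Psmd10, also known as gankyrin, was at 13.1 RPKM in the control and between 11 and 13.0 RPKM in the 8 cytokine libraries. The inhibitor Psmf1 was likewise highest in the control, at 13.6 RPKM, and lay between 11.7 and 13.1 RPKM elsewhere. Psmc3ip was at 4.46 RPKM in the control, 4.95, 3.81, 7.79 and 11.7 RPKM with IL-2, and 3.96, 4.02, 5.03 and 4.24 RPKM with IL-21. At 24 h it had the largest ratio of IL-2 to IL-21 of the 47, 2.77 (2.29 to 3.37), though it is no proteasome subunit. It overlaps the gene Mlx.

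The activators were divided between the interferon-inducible pair Psme1 and Psme2, which form PA28 alpha-beta, and Psme3, the nuclear PA28 gamma. Psme1 was at 267 RPKM in the control, 277, 261, 268 and 246 RPKM with IL-2, and 241, 254, 290 and 197 RPKM with IL-21. Psme2 was at 191 RPKM in the control, 200, 206, 219.7 and 221 RPKM with IL-2, and 173, 199, 214 and 183 RPKM with IL-21. Both were among the most abundant members and neither reached 1.5-fold from the control. The ratio of Psme1 to Psme2 within a library was 1.40 in the control (1.35 to 1.45), 1.12 at 24 h with IL-2 (1.08 to 1.16) and 1.08 at 24 h with IL-21 (1.04 to 1.12). That ratio does not depend on library scaling. The gene Emc9 overlaps Psme1, and Psme2 has a retrocopy, Psme2b, that is no symbol in the files, so both counts may hold reads of another gene.

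Psme3 was at 33.9 RPKM in the control, 35.7, 66.0, 86.0 and 105 RPKM with IL-2, and 32.8, 53.0, 57.2 and 50.6 RPKM with IL-21. It was above the control from 2 h on with both cytokines and at 24 h stood at 3.09 times the control with IL-2 (2.97 to 3.22) and at 1.49 times with IL-21 (1.43 to 1.56). Psme4, the PA200 activator, was at 12.6 RPKM in the control, 17.5 RPKM at 24 h with IL-2 and 15.3 RPKM at 24 h with IL-21.

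The immunoproteasome genes did not share the difference of the constitutive ones at 24 h of IL-2, where none of the 3 was 1.5-fold from the control. Psmb8 was at 246 RPKM in the control, 262, 255, 284 and 329 RPKM with IL-2, and 218, 221, 252 and 233 RPKM with IL-21. It was above its IL-21 value at all 4 times, and after 24 h stood at 1.34 times the control with IL-2 (1.30 to 1.37) and at 0.948 times with IL-21 (0.922 to 0.974). Psmb9 was at 131 RPKM in the control, 135, 116, 109.5 and 132 RPKM with IL-2, and 114, 102, 90.1 and 99.7 RPKM with IL-21. It was lowest at 4 h in both series, and at 24 h with IL-2 its difference from the control was 0.02, or -0.18 with upper quartile scaling. Psmb10 was at 76.2 RPKM in the control, 79.9, 85.8, 84.0 and 58.7 RPKM with IL-2, and 65.2, 79.0, 83.4 and 61.6 RPKM with IL-21. It was below the control after 24 h with both cytokines, at 0.770 times with IL-2 (0.729 to 0.812) and at 0.809 times with IL-21 (0.770 to 0.850).

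**Figure D4:**
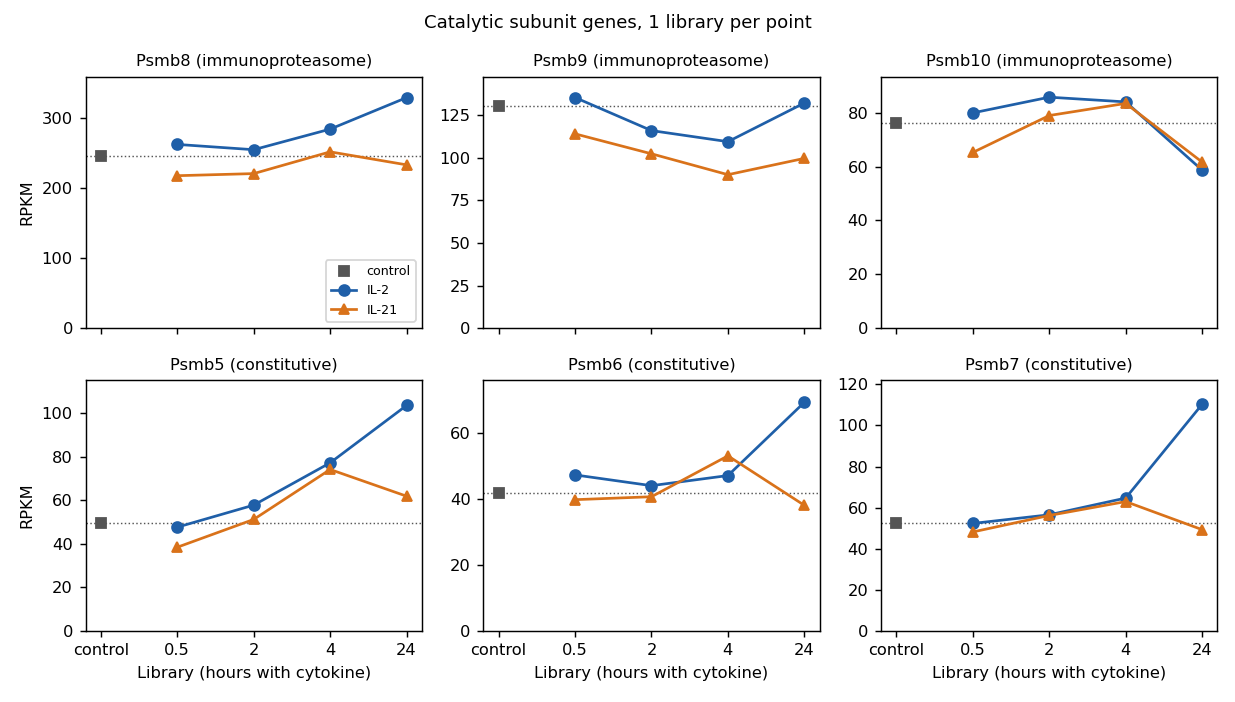
RPKM of the 3 immunoproteasome genes (top) and of the constitutive gene each replaces (bottom) in the control (square, dotted line) and at 0.5, 2, 4 and 24 h of IL-2 (circles) or IL-21 (triangles), 1 library per point with no error bar, vertical axes from 0. Psmb5, Psmb6 and Psmb7 end at 104, 69.3 and 110 RPKM with IL-2, whereas Psmb10 ends at 58.7 RPKM.

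Each immunoproteasome gene was then set against the constitutive gene whose place its product takes, as a ratio of RPKM within a library, which does not depend on library scaling. Psmb8 to Psmb5 was 4.96 in the control (4.70 to 5.24), 5.51, 4.41, 3.68 and 3.18 along the IL-2 times, and 5.66, 4.31, 3.39 and 3.77 along the IL-21 times. This ratio was lower at 2, 4 and 24 h than in the control under both cytokines. Psmb9 to Psmb6 was 3.12 in the control (2.93 to 3.31), 2.87, 2.64, 2.33 and 1.91 with IL-2, and 2.87, 2.52, 1.70 and 2.62 with IL-21. Its lowest value was thus at 4 h with IL-21 and at 24 h with IL-2. Psmb10 to Psmb7 was 1.45 in the control (1.37 to 1.54), 1.53, 1.52, 1.30 and 0.532 with IL-2, and 1.36, 1.41, 1.33 and 1.25 with IL-21. In the IL-2 24 h library (interval 0.504 to 0.561) the constitutive transcript was the more abundant of this pair, which held in no other library. The 3 genes together summed to 3.14 times the 3 constitutive genes in the control, 1.84 times at 24 h with IL-2 and 2.64 times at 24 h with IL-21. These are transcript ratios, and protein was not measured.

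**Figure D5:**
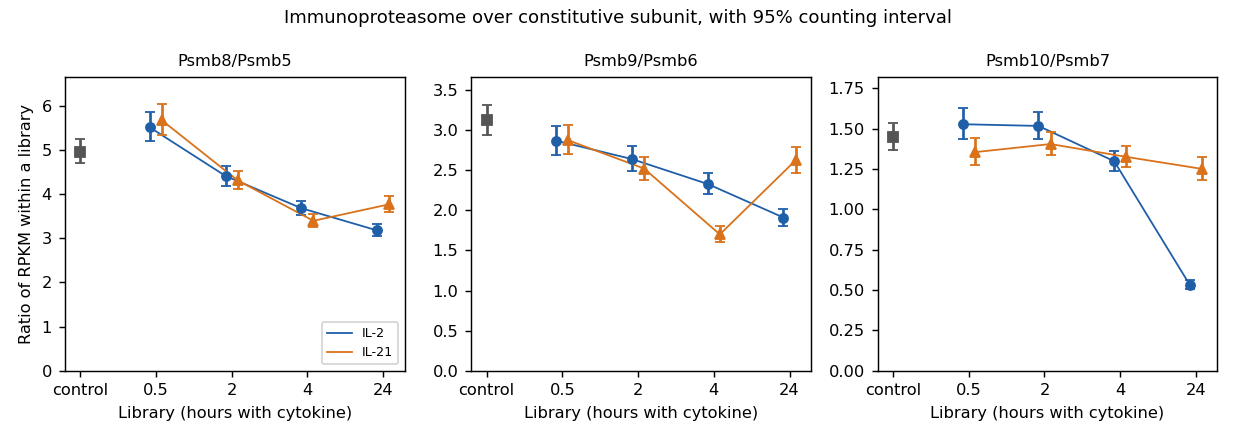
Ratio of RPKM of Psmb8 to Psmb5, Psmb9 to Psmb6 and Psmb10 to Psmb7 within each library, with 95% counting intervals, for the control (square), IL-2 (circles) and IL-21 (triangles) at 0.5, 2, 4 and 24 h. The Psmb10 to Psmb7 ratio is 0.532 at 24 h with IL-2 and between 1.25 and 1.53 in the other 8 libraries.

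Direct comparison of the cytokines at equal times put most of the difference at 24 h. At 0.5, 2 and 4 h 0 of 47 members were 1.5-fold higher with IL-2 on the log2(RPKM + 1) scale, against 0.878%, 2.71% and 9.63% of all genes. As plain RPKM ratios the largest were 1.54 (Psmg3), 1.25 (Psmg4) and 1.55 (Psmc3ip) at these times. At 24 h 4 members, Psmb7, Psmc3ip, Psmd1 and Psme3, were 2-fold higher with IL-2. That is 8.51% of the members, no larger a share than the 9.85% of all genes. At 1.5-fold 34 of 47 were higher (72.3%), against 22.1% of all genes. The 34 held 27 of the 31 constitutive and 0 of the 3 immunoproteasome subunits. Median log2 differences at 24 h were 0.74 for the constitutive subunits, 0.40 for the immunoproteasome subunits and 0.07 for all genes. The counting interval lay above equality for all 31 constitutive subunits, and Psmf1, Psmb10 and Psmd10 were the members whose interval held equality. For these intervals too no share over all genes was computed. With upper quartile scaling, which moved the median of all genes by -0.14, 2 members (Psmc3ip and Psmd1) were 2-fold higher with IL-2 at 24 h, against 7.17% of all genes.

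To set these differences against variation between libraries, the 8 cytokine libraries were fitted together over 10452 genes with edgeR's quasi-likelihood test, and 3 questions were asked. The mean difference of IL-2 and IL-21 over 4 times passed an adjusted p of 0.05 in 0 of 47 members (0.0383% of all genes). At an unadjusted p of 0.05, 4 members were higher with IL-2, Psmg3, Psme3, Psmg1 and Psmg4, against 8.05% of all genes. The largest of these was Psmg3, with a mean log2 difference of 0.50 (SE 0.17, edgeR adjusted p = 0.309). The IL-2 library was the higher at 4 of 4 times, with a counting interval that held equality at 2 h. DESeq2 and limma also called 0 members, while over all 10452 genes they called 450 and 3. The median over the constitutive subunits was 0.23, and 0.06 without the 24 h libraries.

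The second question was whether the difference changes with time, fitted as its slope on log2 of the hours. Again 0 of 47 members passed in edgeR (5.2% of all genes), and 12 were higher at an unadjusted p of 0.05 (15.7%). The lowest adjusted value was that of Psmd1, whose difference grew by 0.23 per doubling of the hours (SE 0.06, edgeR adjusted p = 0.0686). The IL-2 library was the higher at 4 of 4 times, but only just at 0.5 h (18.7 against 18.6 RPKM). At 0.5 and 2 h the counting interval of Psmd1 held equality. Psmd7, Psmc6, Psmd14 and Psme3 followed, with edgeR adjusted p from 0.071 to 0.074. Psmb8 and Psmb9 had slopes of 0.04 and 0.03 and Psmb10 one of -0.07, with edgeR adjusted p of 0.611, 0.703 and 0.332. DESeq2 called Psmd1 alone (6.91% of all genes higher) and limma called 0. Leaving out the 0.5 h libraries, edgeR called 3 members (Psmb7, Psmc3ip and Psmd1; 8.81%), and without the 4 h libraries 7 (Psmb7, Psmc6, Psmd1, Psmd7, Psmd12, Psmd14 and Psme3; 10.6%), in each case higher. Without the 24 h libraries the median slope of the constitutive subunits was -0.02 instead of 0.10.

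The third question was which members differed between 24 h and 0.5 h on average over both cytokines. Such an average need not hold equally under each cytokine. From 0.5 to 24 h the constitutive sum went from 1834 to 3027 RPKM with IL-2, and from 1627 to 1846 RPKM with IL-21. In edgeR 0 of 47 passed (0.287% of all genes), and 16 were higher at an unadjusted p of 0.05 (11%). Psmb5 had the lowest adjusted value, with a log2 difference of 0.92 (SE 0.21, edgeR adjusted p = 0.123), followed by Psme3 with 1.10 (SE 0.25, edgeR adjusted p = 0.124). DESeq2 called 7 members, all higher at 24 h (Psma3, Psmb5, Psmd1, Psmd7, Psmd13, Psme3 and Psmg2; 3.68% of all genes), and limma called 0. Psmb9 and Psmb10 had log2 differences of -0.12 and -0.27, and neither passed (edgeR adjusted p = 0.691 and 0.404).

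Other genes of the pathway were described from lists. The 8 measured proteasome partners that carry other names had a median of 0.72 at 24 h with IL-2 and 0.02 at 24 h with IL-21, both against the control. Pomp, the core maturation factor, was at 82.5, 145 and 85.1 RPKM in the control and at 24 h with IL-2 and with IL-21, and the ubiquitin receptor Adrm1 at 34.7, 54.3 and 35.1 RPKM. Of these 8, 3 passed the slope test with a growing difference (edgeR adjusted p from 0.042 to 0.048), against 5.2% of all genes passing in either direction. They are the proteasome-bound deubiquitinases Uchl5 (12.2, 41.6 and 15.1 RPKM in the same 3 libraries) and Usp14 (7.81, 22.5 and 8.91 RPKM) and the thioredoxin-like Txnl1 (19.2, 38.0 and 18.2 RPKM). All 3 calls were lost in edgeR with time as a straight line on log2 of the hours, where 0 of 10452 genes passed (adjusted p = 0.123 for Uchl5, 0.157 for Usp14 and 0.125 for Txnl1). They were also lost with libraries scaled by their total counts alone, where 10 genes passed in place of 543 (edgeR adjusted p from 0.0517 to 0.0578). Txnl1 was lost as well without the 2 h libraries (edgeR adjusted p = 0.126), with the longest transcript of each gene (0.0511) and with transcripts under 200 bases kept (0.0510). Uchl5 differed most from the control at 24 h with IL-2 (1.68) and the ligase Ube3c least (0.29).

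Genes that regulate proteasome transcription had a lower median than the constitutive subunits at 24 h with IL-2. For the 8 listed regulators it was 0.31, against 0.05 for all genes. At 1.5-fold 0 of 8 were higher, against 22.6% of all genes, and a 0 among so few genes says little. In edgeR 0 passed a test, where at most 5.2% of all genes did. Nfe2l1, the transcription factor known for raising proteasome subunit genes when proteolysis is short, was at 15.7 RPKM in the control, 17.1 RPKM at 24 h with IL-2 and 15.3 RPKM at 24 h with IL-21. The range ran from -0.12 (Ngly1) to 0.56 (Mafg).

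Ubiquitin genes and shuttle factors went different ways. The 6 genes of ubiquitin supply had a median of -0.38 at 24 h with IL-2 and -0.35 at 24 h with IL-21. The E1 enzyme Uba6 had the highest difference of these with IL-2 (1.01). The 9 shuttle and unfolding factors had a median of 0.63 at 24 h with IL-2 and 0.12 at 24 h with IL-21, and the lowest with IL-2 was Ufd1l (0.11). None of these 15 genes passed a test in edgeR, where at most 5.2% of all genes did.

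Antigen processing genes did not follow the constitutive subunits either. The 10 listed class I genes had a median of 0.00 at 24 h with IL-2. Tap1, the peptide transporter gene that neighbours Psmb9, was at 126 RPKM in the control, 83.4 RPKM at 24 h with IL-2 and 80.0 RPKM at 24 h with IL-21. Tapbp lay farthest below the control with IL-2 (-0.68), and the chaperone Canx farthest above it (1.33), from 59.1 to 151 RPKM, with 62.0 RPKM after IL-21. Canx was the 1 gene of the list that passed the slope test (edgeR adjusted p = 0.044), a call lost with the straight-line fit (edgeR adjusted p = 0.123), with scaling by total counts alone (0.0544) and without the 2 h libraries (0.0709). The 7 interferon and class I regulators had a median of -1.26 at 24 h with IL-2 and -0.11 at 24 h with IL-21. Irf1 was at 252, 55.2 and 106 RPKM in the control and at 24 h with IL-2 and with IL-21. Irf7 alone of the 7 passed the slope test, with a negative slope (edgeR adjusted p = 0.042), and it too was lost with the straight-line fit (edgeR adjusted p = 0.208), with scaling by total counts alone (0.0513) and without the 24 h libraries (0.0611). Nlrc5, the class I transactivator, differed least with IL-2 (-0.05).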

How the data were processed

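The data are 9 RNA-seq libraries of activated mouse CD4+ T cells. Per the labels' protocols, libraries came from total RNA with a stranded kit. The build mm9 and the tools Bowtie 0.12.9, TopHat2 2.0.11, HOMER and SAMtools are listed in the submitters' processing notes. For the annotation, the counting program and the strand setting the sources used here name nothing. The authors deposited a read count and an RPKM value for each RefSeq transcript, with its chromosome, strand and length, per the file headers. A file holds 29543 transcripts of 23222 symbols.

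For a gene with several transcripts the one of highest mean RPKM was taken, and 43 of the 47 members have 1 transcript. Transcripts under 200 bases were left out. Differences used log2(RPKM + 1) over 11047 genes with 1 RPKM in the highest library, and 2-fold or 1.5-fold counts. Tests used the deposited counts with edgeR 4.0.16 (quasi-likelihood, TMM scaling, Benjamini-Hochberg over 10452 genes with a mean of 1 RPKM), 3 residual degrees of freedom for the mean and the 24 h contrast and 2 for the slope. DESeq2 1.42.0 and limma 3.58.1 were alternatives, as were upper quartile scaling, scaling by total counts alone, no filter on low values, the longest transcript, and leaving out each time. The fits and intervals were tested on simulated data. No label names separate mice or cultures, so no p-value here rests on replicates. For the mean and the 24 h contrast the spread is that of the IL-2 to IL-21 difference between times. For the slope it is the spread of that difference around its fitted line. Part of either may be technical. A gene with 3 reads in a transcript of 1000 bases would have 0.0677 to 0.102 RPKM, and such floors, like the intervals, cover counting error only (no molecular identifiers were used, so reads are not independent molecules).

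Named genes were the 3 immunoproteasome genes, their 3 counterparts, Psme1 and Psme2, the members with the largest and smallest difference of the cytokines at 24 h in every role, those at 2-fold in any comparison, those nearest the 1 RPKM limit, and fixed pathway genes with the extremes of each list. The genes given at 1.5-fold, those at an unadjusted p of 0.05, those called only by DESeq2 or without 1 time, and the printed sequences were chosen after their values were seen. Members and lists were chosen with earlier results of these data known. A RefSeq gene table (GRCm38.p6) holds all 47 members, and 13 of them overlap another gene in it. The listed symbols Paaf1, Trac and Adgre1 matched no row. Some genes that this rule names are not reported here.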

Additional observations from a re-analysis of the deposited data

How the results depend on the processing

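The number of members passing the slope test was 0, and 1 with DESeq2. Leaving out 1 time it ran from 0 to 7 (3 without 0.5 h, 7 without 4 h), with 1 residual degree of freedom. The number passing for 24 h against 0.5 h was 0, and 7 with DESeq2. For IL-2 against IL-21 over 4 times it was 0 under every alternative run, including each time left out. The number of all genes passing there ran from 0 (without the 4 h or the 24 h libraries) to 450 (DESeq2). Where so few genes passed anywhere, a 0 among the members says little about them. At 2-fold, 10 members were higher after 24 h of IL-2 than in the control, 10 with TMM scaling, 4 with upper quartile scaling and 31 at 1.5-fold. Between the cytokines at 24 h the numbers were 4, 4 with TMM scaling, 2 with upper quartile scaling and 34 at 1.5-fold. Of the 5 pathway genes that passed the slope test, Uchl5 and Usp14 passed under 10 of 12 alternatives, Canx and Irf7 under 9 and Txnl1 under 7. The cause of these shifts was not tested. By the limits set, 301 alternative values stayed and 25 moved. Counts of members could not be labelled as reversed, and medians only where the main value was at least 1.5-fold. Many of the values that stayed are counts of 0 in both settings. Smaller medians did change sign. The immunoproteasome median at 24 h with IL-2 against the control was 0.02, and -0.18 with upper quartile scaling. No paired analysis was possible because the labels give the RNA libraries no replicate number, beyond the matching of IL-2 and IL-21 by time that the fits already hold. With 1 library per condition, a difference between 2 libraries has no replicate check.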
